A study of Mus musculus with 6 samples.

Results

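A set of 32 genes of the fat cell and of fat metabolism was examined in subcutaneous KLN205 tumours, a mouse squamous cell carcinoma line grown in mice. Its members were named one by one and found by an exact match of the gene symbol. All 32 were measured, each by 1 transcript cluster, out of 21154 genes with a name of their own on the Clariom S Mouse array. The set holds hormones of the adipocyte, proteins of the lipid droplet, fatty acid uptake proteins, enzymes that make, store and break down triglyceride, and regulators of the fat cell.

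Total RNA of 6 tumours was read, 3 from the anti-PD-1 group (replicates 1, 2 and 3) and 3 from the control group (replicates 2, 3 and 4). All tumours were grown from KLN205 cells injected with Matrigel under the skin of the left flank. The anti-PD-1 group received an antibody to the checkpoint receptor PD-1 in the peritoneum, 250 µg every 3 days. For the controls the treatment protocol names an IgG2a isotype antibody, and the same dose and interval are recorded for all 6 samples. The sample labels and the series text, by contrast, say only that no anti-PD-1 was given to the controls. Which of these holds for the controls is not settled in the sources used here. The series text also speaks of cells that survived treatment, whereas the sample labels speak of tumour tissue, and whole tumour RNA is what the signals below describe. The strain, sex and age of the mice, the time of collection for each tumour and whether each tumour came from its own animal are not given in the sources used here, so the p-values measure the spread between these 6 samples. The line is a single line, and the labels do not describe how much skin or fat was taken with a tumour.

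White adipocytes store triglyceride in a single large droplet, coated by perilipins and CIDE proteins, and release it through hormone-driven lipolysis. PPARgamma and C/EBPalpha switch on the genes of the mature cell, among them those of hormones such as adiponectin and leptin. The skin of the flank lies over a layer of such cells, and in females also over the mammary fat pad, while squamous carcinoma cells use some of the same enzymes to make membrane lipids.

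The values are log2 signals, in which a difference of 1 unit is 2-fold, normalized between arrays by the authors. The median signal of an array lay between 7.04 and 7.13 and its highest signal between 19.57 and 19.76. Control replicate 3 was unlike the other arrays across all genes. Its marker genes of squamous epithelium were the lowest of the 6 arrays in the median over 10 genes, and its fat genes were the highest. The differences of the members and of the set are therefore given with and without it. In RNA of whole tumours fewer cells of a type and less RNA per cell cannot be told apart.

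The fat genes were high in 2 of the 3 control tumours, whereas the third control read like the anti-PD-1 tumours. Of the 32 members, 30 had their highest signal in control replicate 3, where 26.1% of all genes had theirs. The exceptions were Cidea, highest in anti-PD-1 replicate 2, and Ucp1, highest in control replicate 2. Control replicate 2 came next for 28 members, and anti-PD-1 replicate 3 was the lowest array for 23 members, against 17.3% of all genes. Control replicate 4 lay within the range of the 3 anti-PD-1 tumours for 26 members, below it for 3 (Cidea, Pck1 and Fasn) and above it for 3 (Lpl, Cyp2e1 and Ucp1).

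**Figure D1:**
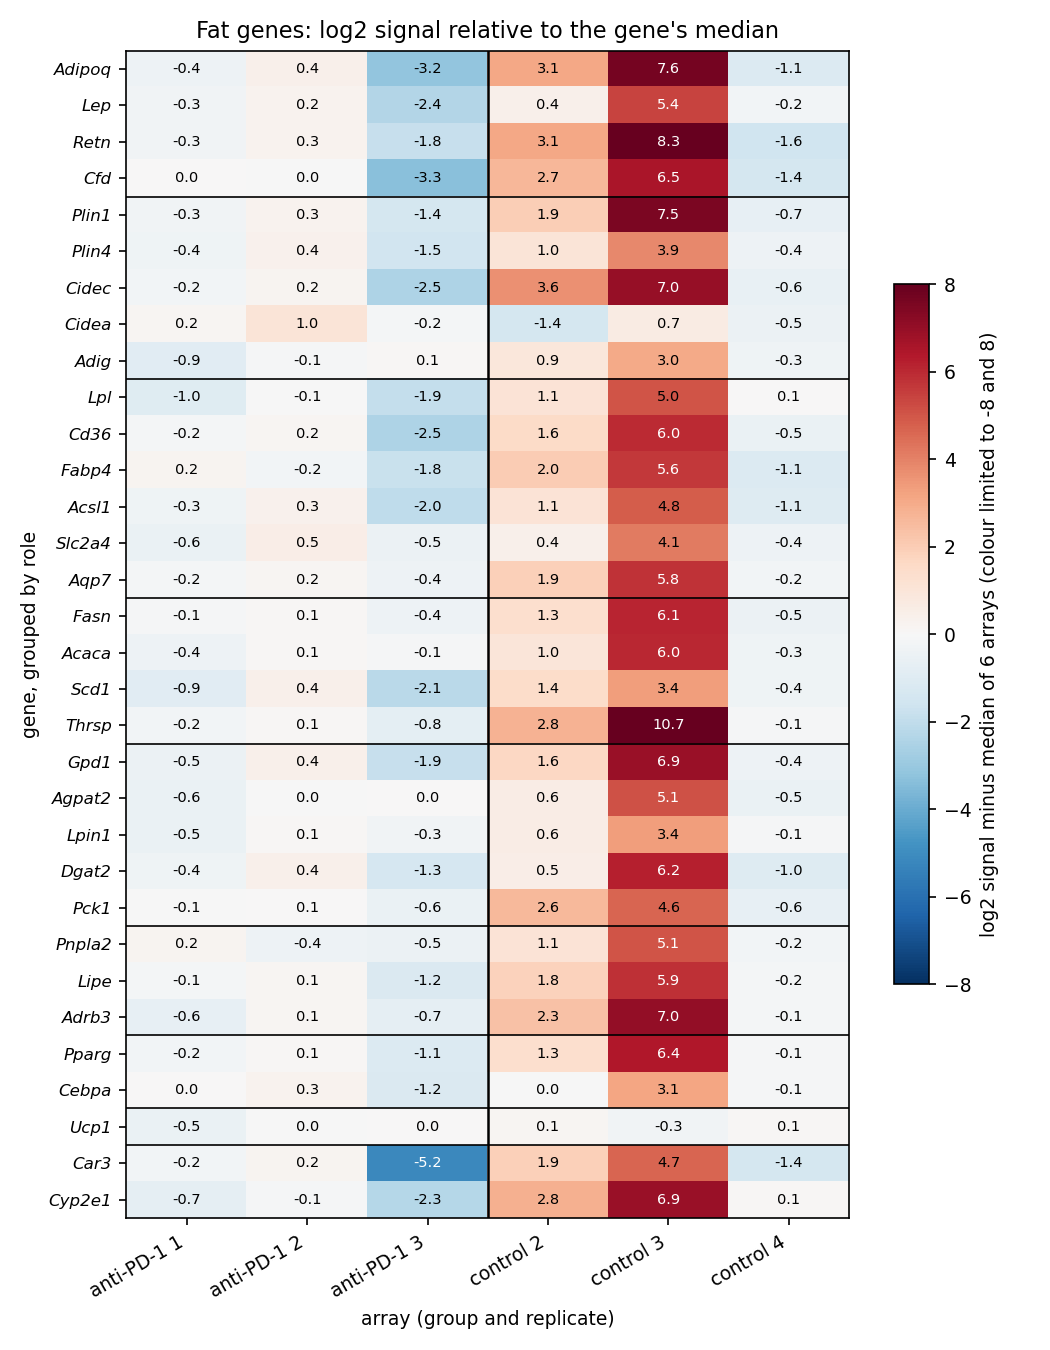
Log2 signal of each fat gene (rows, grouped by role in the order hormones, lipid droplet, uptake, fatty acid synthesis, triglyceride assembly, lipolysis, regulators, thermogenesis, other enzymes) in each array (columns), as the difference from the gene's median over the 6 arrays, printed in each cell. Control replicate 3 is the highest column for 30 of 32 genes and control replicate 2 the second for 28, while control replicate 4 has values like those of the anti-PD-1 tumours.

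The promoters of 3 members are shown because these genes stand for the pattern: Adipoq for hormones and Plin1 for the droplet coat, both made by fat cells, and Thrsp, chosen after its values were seen, as the gene with the largest deviation in control replicate 3. Each window runs from 250 bases before to 50 bases after the start given by RefSeq (GRCm38.p6), is written 5′ to 3′ on the strand of the gene, and has motif matches in capitals. Adipoq lies at chr16:23146286-23146585 on the plus strand, and its capitals are CCAAT or, where that motif lies on the opposite strand, ATTGG. Plin1 lies at chr7:79732727-79733026 on the minus strand, and its capitals are matches of TTGCNNAA, the core bound by C/EBP factors. Thrsp lies at chr7:97417501-97417800 on the minus strand, with CCAAT and ATTGG in capitals.
Adipoq: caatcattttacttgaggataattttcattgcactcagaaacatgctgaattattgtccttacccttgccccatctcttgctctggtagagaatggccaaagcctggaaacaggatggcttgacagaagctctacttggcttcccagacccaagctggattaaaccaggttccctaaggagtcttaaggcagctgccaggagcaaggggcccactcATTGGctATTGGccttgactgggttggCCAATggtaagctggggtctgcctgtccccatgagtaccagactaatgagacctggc
Plin1: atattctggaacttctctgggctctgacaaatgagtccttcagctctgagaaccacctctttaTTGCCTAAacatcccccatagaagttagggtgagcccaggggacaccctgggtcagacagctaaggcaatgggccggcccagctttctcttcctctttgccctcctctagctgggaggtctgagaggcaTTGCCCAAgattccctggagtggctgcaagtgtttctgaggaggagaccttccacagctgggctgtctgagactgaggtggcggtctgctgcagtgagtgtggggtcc
Thrsp: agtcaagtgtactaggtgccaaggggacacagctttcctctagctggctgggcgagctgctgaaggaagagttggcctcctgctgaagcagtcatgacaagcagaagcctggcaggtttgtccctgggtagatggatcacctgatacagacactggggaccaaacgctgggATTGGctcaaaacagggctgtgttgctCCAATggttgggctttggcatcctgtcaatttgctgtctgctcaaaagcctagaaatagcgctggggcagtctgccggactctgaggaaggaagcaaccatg

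In these windows CCAAT was found 3 times for Adipoq, at -34 and -27 on the opposite strand and at -7 on the strand of the gene, counted as the first base of the match from the start. Plin1 held TTGCNNAA at -187 and -58, and Thrsp held CCAAT at -79 on the opposite strand and at -52. Windows were found for 23 of the 32 members, and 4 motifs were searched on both strands. Of a member with several windows only the first was counted, whereas the values over all windows take in every window of a gene. The TATA core TATAAA was in 2 of the 23 member windows and in 13.6% of all 32851 promoter windows. CCAAT was in 7 of 23, against 37.4% of all windows, AGGTCA, the core bound by many nuclear receptors, in 6 of 23, against 16.3%, and TTGCNNAA in 2 of 23, against 10.8%. The CpG count was 0 in the Adipoq window, 2 in that of Plin1 and 4 in that of Thrsp, beside a median of 6 over the 23 member windows and of 7 over all windows. The windows of Cidec and Acaca had also been planned and are not printed. None of the 4 motifs was found in that of Acaca. Of the 2 windows of Cidec, only the second, which was not counted, held a match, of TTGCNNAA. All these matches describe letters only.

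Of the hormones, Adipoq encodes adiponectin, a hormone made almost only by fat cells. It read 9.26, 10.12 and 6.53 in the anti-PD-1 tumours 1, 2 and 3, against 12.76, 17.32 and 8.60 in the control tumours 2, 3 and 4. Control replicates 3 and 2 were the high arrays, control replicate 4 lay between anti-PD-1 replicates 3 and 1, and the groups overlapped. The difference of means was -4.26 ± 2.11 (SE, adjusted p 0.540 by limma). Without control replicate 3 it was -2.04.

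Retn, the gene of resistin, a hormone that fat cells secrete in mice, read 5.74, 6.33 and 4.22 in anti-PD-1 tumours and 9.14, 14.36 and 4.42 in controls. Its spread among controls, 4.97 (SD, n = 3), was larger than the difference of -3.88 (adjusted p 0.564, limma), which was -1.35 without control replicate 3. Cfd, the gene of adipsin, a complement protease made by fat cells, read 10.48, 10.47 and 7.13 in anti-PD-1 tumours, against 13.14, 17.01 and 9.06 in controls. In both genes control replicate 4 sat inside the anti-PD-1 range, and control replicate 2 stood above it.

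Leptin, the hormone that reports the size of fat stores, behaved otherwise in control replicate 2. Lep read 4.99, 5.53 and 2.93 in anti-PD-1 tumours and 5.69, 10.67 and 5.03 in controls. Only control replicate 3 was clearly high, since control replicate 2 lay 0.16 above anti-PD-1 replicate 2. The difference of -2.65 ± 1.50 (SE, adjusted p 0.559 by limma) became -0.88 without control replicate 3, and the difference of the group medians was -0.70. The authors' deposited table gives Lep a fold of 1.25, control over anti-PD-1, from averages of 5.05 in anti-PD-1 and 5.37 in control.

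**Figure D2:**
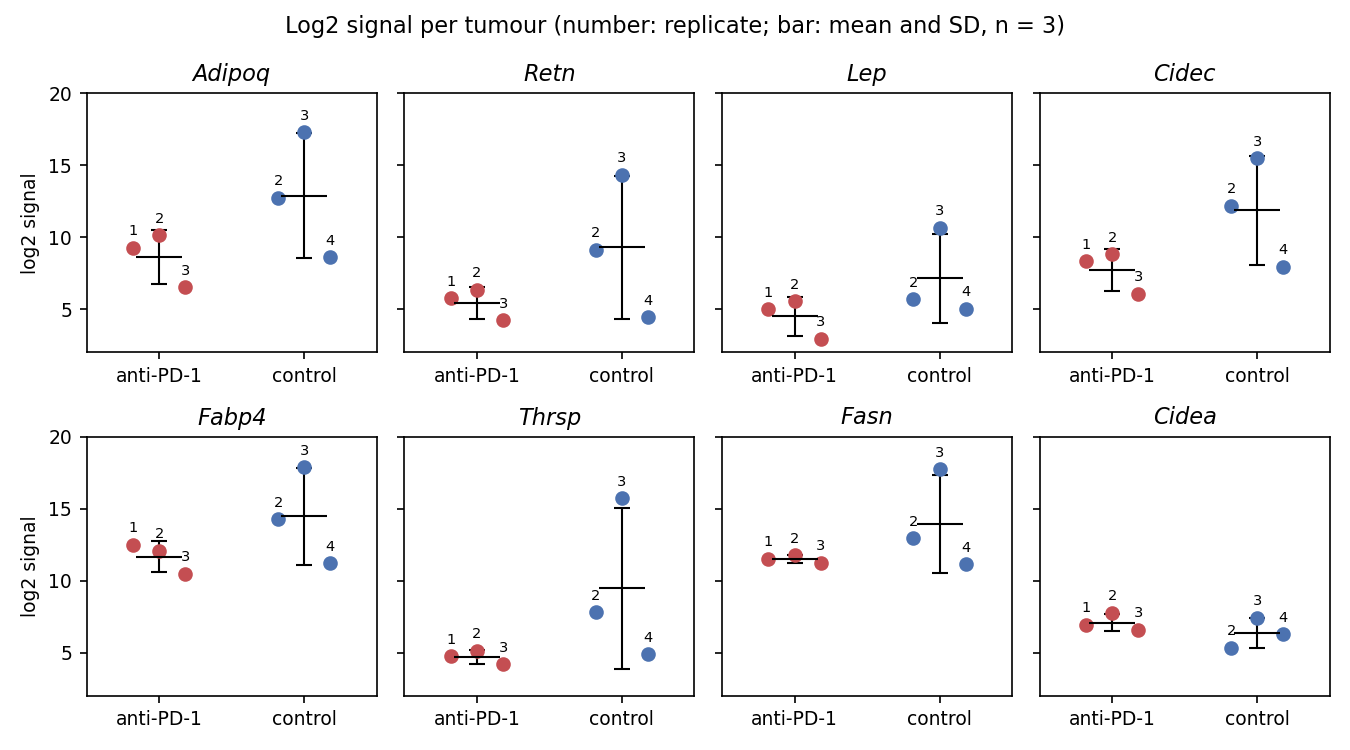
Log2 signal (vertical axis) of 8 fat genes in each anti-PD-1 tumour (red, left) and each control tumour (blue, right), with the replicate number at each point and the group mean and SD (n = 3) as a bar. Control replicate 3 is the top point in 7 panels, and in the panel of Cidea the top point is anti-PD-1 replicate 2, at 7.76.

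Among the lipid droplet proteins, Cidec, which fuses droplets in white fat, read 8.32, 8.80 and 6.07 in anti-PD-1 tumours, against 12.20, 15.51 and 7.95 in controls. Its deviation from the gene's median in control replicate 2, 3.64, ranked 5 of all 21154 genes of that array. The group difference was -4.16 ± 1.81 (SE), adjusted p 0.518 by limma, and -2.35 without control replicate 3. Control replicate 4 again lay within the anti-PD-1 range.

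Plin1, the perilipin that guards the droplet of fat cells against lipases, read 6.39, 6.93 and 5.24 in anti-PD-1 tumours and 8.60, 14.19 and 5.99 in controls. Plin4, which coats small droplets, read 6.20, 6.94 and 5.03 in anti-PD-1 tumours and 7.61, 10.42 and 6.17 in controls. Both genes had the same order at the top, control replicate 3 before control replicate 2, with anti-PD-1 replicate 3 the lowest. Adig, the small adipocyte protein adipogenin, read 4.93, 5.76 and 5.89 in anti-PD-1 tumours and 6.74, 8.87 and 5.51 in controls, and its lowest array was anti-PD-1 replicate 1.

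Cidea departed from its relative Cidec. This gene, known from brown fat and also from sebaceous glands, read 6.93, 7.76 and 6.57 in anti-PD-1 tumours and 5.33, 7.41 and 6.28 in controls. It was the lowest in control replicate 2, where Cidec was near its top, and it was the one member with a higher mean in anti-PD-1 tumours. The difference was 0.75 ± 0.56 (SE, adjusted p 0.630 by limma), and 1.28 without control replicate 3, and the groups overlapped.

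The markers of sebaceous glands were also highest in anti-PD-1 replicate 2 and low in control replicate 2. Their score, the median over 8 genes of each signal's distance from its own 6-array mean in log2 units, was 0.70, 2.06 and -0.07 in anti-PD-1 tumours and -1.57, -1.67 and 0.39 in controls. Of the 8 genes, 7 had a higher mean in anti-PD-1 tumours. Krt79, a keratin of the gland duct, read 11.97, 13.99 and 11.66 in anti-PD-1 tumours and 6.95, 5.32 and 12.25 in controls. Control replicates 2 and 3 were both low for it, whereas for Cidea control replicate 3 was not. The part of these glands in the Cidea signal was not tested.

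For the uptake of fatty acids, Lpl encodes the lipase that frees them from lipoproteins at the vessel wall. It read 10.69, 11.59 and 9.74 in anti-PD-1 tumours, against 12.74, 16.65 and 11.71 in controls. Every control lay above every anti-PD-1 tumour, by 0.12 at the closest pair. The difference was -3.03 ± 1.24 (SE), with an unadjusted p of 0.0453 and an adjusted p of 0.512 by limma, and -1.55 without control replicate 3.

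Fabp4, the fatty acid carrier of fat cells, of macrophages and of capillary endothelium, read 12.49, 12.07 and 10.47 in anti-PD-1 tumours and 14.29, 17.91 and 11.21 in controls. Cd36, a fatty acid receptor of the same cells and of muscle, read 9.32, 9.68 and 7.03 in anti-PD-1 tumours and 11.05, 15.46 and 8.97 in controls. Both had control replicate 4 inside the anti-PD-1 range. Acsl1, which couples fatty acids to coenzyme A, read 8.90, 9.59 and 7.23 in anti-PD-1 tumours and 10.36, 14.08 and 8.19 in controls.

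Aqp7, the glycerol channel of fat cells, read 5.73, 6.09 and 5.52 in anti-PD-1 tumours and 7.83, 11.68 and 5.72 in controls. Slc2a4 encodes GLUT4, the insulin-dependent glucose transporter of fat and muscle. It read 5.37, 6.46 and 5.48 in anti-PD-1 tumours, against 6.31, 10.06 and 5.55 in controls. Only control replicate 3 was high for Slc2a4, since control replicate 2 lay below anti-PD-1 replicate 2.

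Among the genes of fatty acid synthesis, control replicate 3 exceeded control replicate 2 by very unequal amounts. Thrsp, the gene of the Spot 14 protein, which in fat and liver goes with lipid synthesis, read 4.75, 5.11 and 4.19 in anti-PD-1 tumours and 7.79, 15.73 and 4.87 in controls. Its deviation of 10.74 in control replicate 3 was the largest of all 21154 genes in that array. The gap between control replicates 3 and 2 was 7.94, the largest among the members. The difference between the groups was -4.78 ± 2.50 (SE, adjusted p 0.546 by limma), and -1.65 without control replicate 3.

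Fasn, fatty acid synthase, read 11.52, 11.76 and 11.25 in anti-PD-1 tumours and 12.96, 17.76 and 11.16 in controls. Acaca, acetyl-CoA carboxylase 1, which supplies its substrate, read 9.85, 10.34 and 10.16 in anti-PD-1 tumours and 11.22, 16.29 and 9.90 in controls. The anti-PD-1 tumours lay close together for both, with SDs of 0.26 for Fasn and 0.25 for Acaca (n = 3), and control replicate 4 lay among or just below them. The differences, -2.45 for Fasn and -2.35 for Acaca, became -0.55 and -0.44 without control replicate 3.

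Scd1, the desaturase that makes oleic acid, read 15.12, 16.41 and 13.89 in anti-PD-1 tumours and 17.48, 19.39 and 15.66 in controls. In control replicate 3 this signal was near the array's highest values. The gap of Scd1 between control replicates 3 and 2, 1.91, was the smallest among the members with their highest signal in control replicate 3. Pck1, which read 11.21 in control replicate 3, had a gap of 2.04. Whether an upper limit of the signal bears on the gap of Scd1 was not tested. Scd1 has close relatives in the mouse, and how far the probes tell them apart was not tested.

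**Figure D3:**
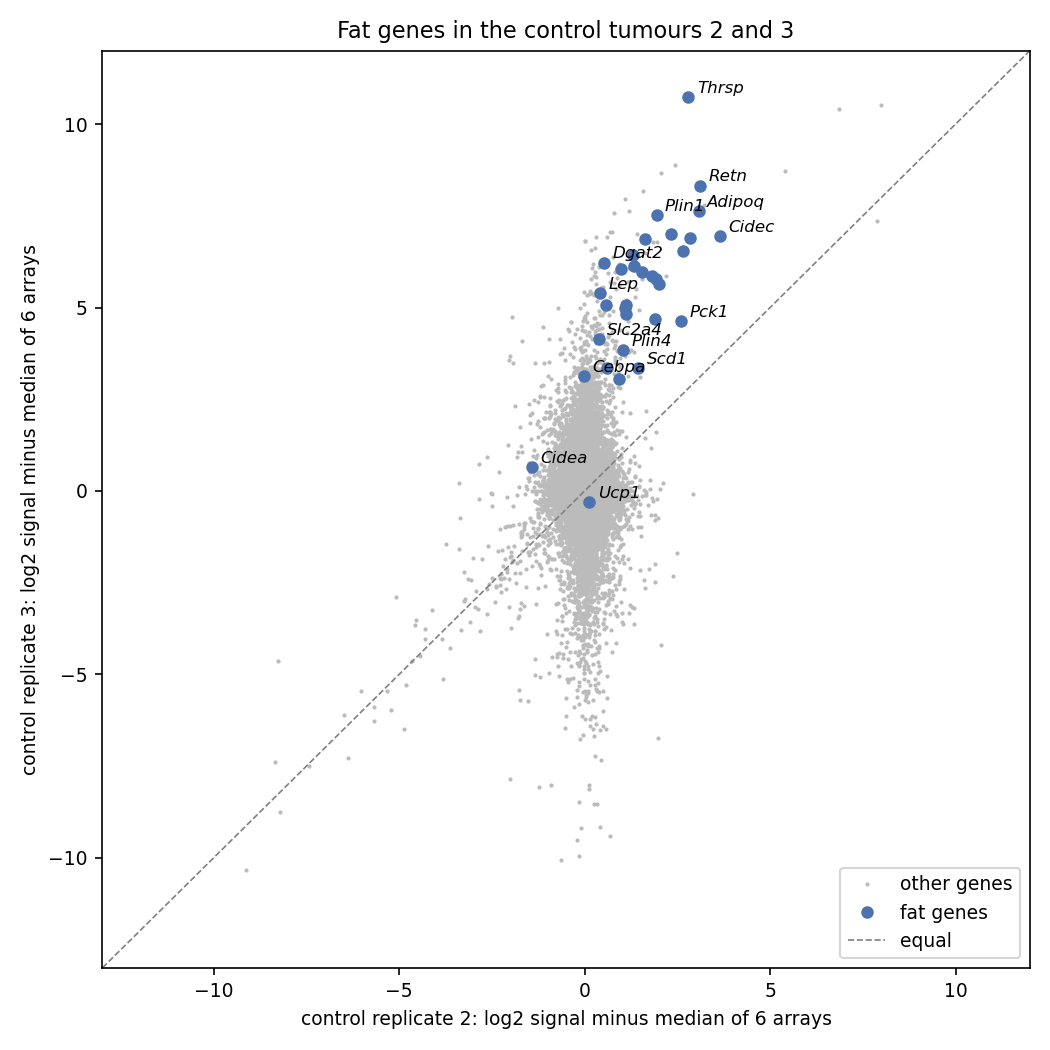
Deviation of each gene from its median over the 6 arrays, in log2 units, in control replicate 2 (horizontal axis) and control replicate 3 (vertical axis), for the fat genes (blue, some named) and all other genes (grey), with a dashed line of equal deviation. Thrsp lies highest at 10.74, Cidec farthest to the right of the members at 3.64, and Lep, Slc2a4 and Cebpa are high on the vertical axis with little deviation on the horizontal one.

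In triglyceride assembly, Gpd1, which makes the glycerol backbone, read 8.33, 9.17 and 6.91 in anti-PD-1 tumours and 10.42, 15.66 and 8.40 in controls. Dgat2, the last step, read 9.62, 10.37 and 8.67 in anti-PD-1 tumours and 10.52, 16.22 and 8.99 in controls. For Dgat2 control replicate 2 lay only 0.15 above anti-PD-1 replicate 2, and the difference of -2.36 became -0.20 without control replicate 3. Agpat2, an acyltransferase without which fat tissue does not form, read 10.63, 11.17 and 11.19 in anti-PD-1 tumours and 11.75, 16.25 and 10.66 in controls.

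Lpin1, the lipin that makes diacylglycerol, read 8.79, 9.40 and 9.06 in anti-PD-1 tumours and 9.93, 12.67 and 9.24 in controls. Pck1, which in fat cells feeds glycerol synthesis from small carbon units, read 6.52, 6.62 and 6.02 in anti-PD-1 tumours and 9.17, 11.21 and 5.93 in controls. Pck1 was one of the members that stood out most in control replicate 2, with a deviation that ranked 13 of 21154 genes, whereas Dgat2 ranked 1330 there.

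The lipases and their receptor had the same pair of high arrays as Adipoq, Retn and Cfd. Pnpla2, the triglyceride lipase ATGL, read 11.48, 10.87 and 10.80 in anti-PD-1 tumours and 12.40, 16.35 and 11.10 in controls. Lipe, hormone-sensitive lipase, read 8.30, 8.59 and 7.29 in anti-PD-1 tumours and 10.26, 14.30 and 8.27 in controls. Adrb3, the adrenergic receptor that triggers lipolysis in rodent fat cells, read 4.44, 5.22 and 4.36 in anti-PD-1 tumours and 7.40, 12.10 and 4.95 in controls. For these 3 genes, too, control replicate 4 lay inside the anti-PD-1 range.

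Of the regulators, Pparg, the nuclear receptor that drives fat cell formation, read 7.15, 7.46 and 6.28 in anti-PD-1 tumours and 8.68, 13.80 and 7.27 in controls. Cebpa, the C/EBP factor that maintains it, read 9.63, 9.92 and 8.45 in anti-PD-1 tumours and 9.62, 12.75 and 9.56 in controls. For Cebpa only control replicate 3 stood out, and the difference of -1.31 in means was -0.26 without that array and 0.01 between the group medians. The authors' deposited table likewise has a fold of -1.08 for Cebpa, that is, slightly higher in anti-PD-1.

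Ucp1, the uncoupling protein of brown and beige fat, was not called expressed in these tumours. It read 3.32, 3.81 and 3.86 in anti-PD-1 tumours and 3.96, 3.54 and 3.91 in controls. The call is that of the authors' deposited table, for both groups. Control replicate 3, the highest for nearly every other fat gene, was not the highest here. Over 10 genes of brown fat, Ucp1 and Cidea included, 5 had a lower and 5 a higher mean in anti-PD-1 tumours, and the median difference was 0.05.

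The 2 remaining enzymes had large values in the same arrays. Cyp2e1, a cytochrome P450 of liver and also of fat, read 5.80, 6.42 and 4.23 in anti-PD-1 tumours, against 9.36, 13.43 and 6.64 in controls. Every control lay above every anti-PD-1 tumour, by 0.22 at the closest pair. The difference was -4.33 ± 1.60 (SE), with an unadjusted p of 0.0315 and an adjusted p of 0.506 by limma, and -2.52 without control replicate 3. Of 8 liver markers, 3 had a lower and 5 a higher mean in anti-PD-1 tumours, and their median difference was 0.03. Albumin (Alb) read 6.11, 5.59 and 5.79 in anti-PD-1 tumours and 6.17, 7.66 and 5.79 in controls. Serpina1a, a protease inhibitor of liver, read 6.24, 6.89 and 6.00 in anti-PD-1 tumours, against 7.02, 8.48 and 7.29 in controls, without overlap. Of the 8 markers, only these 2 were higher in control replicate 3 than in every other array. The median deviation over the 8 was 0.045 in control replicate 3. The part of such genes' sources in the Cyp2e1 signal was not tested.

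Car3, the carbonic anhydrase of fat cells and of slow muscle, read 13.67, 14.06 and 8.71 in anti-PD-1 tumours and 15.76, 18.55 and 12.44 in controls. Anti-PD-1 replicate 3 was the outlying low array, and the gene's deviation of -5.16 there ranked 21152 of 21154 genes. The 8 skeletal muscle markers were all at their lowest in that same tumour. Their score was 1.03, 0.89 and -3.07 in anti-PD-1 tumours and -0.54, 2.26 and -0.81 in controls. These 8 markers were not chosen for slow muscle, and the part of muscle in the Car3 signal was not tested.

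Over the whole set, 31 of 32 members had a lower mean in anti-PD-1 tumours, where 48.0% of all genes did, and 30 were at least 2-fold lower, against 4.58% of all genes. The median difference was -2.64 over the members and 0.02 over all genes. None of the 32 passed an adjusted p of 0.05 in limma, for which the adjusted values lay between 0.506 and 0.842. Over all genes 0.00473% passed, which is 1 gene, Stfa1. At an unadjusted p under 0.05 with at least a 2-fold difference, 2 members, Cyp2e1 and Lpl, were lower in anti-PD-1 tumours, which is 6.25% of the members against 2.16% of all genes. No member was higher by that rule, against 2.15% of all genes.

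The groups did not overlap for the same 2 genes, both lower in anti-PD-1 tumours, a share of 6.25% that lies below the 7.76% of all genes. No member had all anti-PD-1 tumours above all controls, against 8.82% of all genes. The control tumours scattered far more over these genes than the anti-PD-1 tumours. The median SD was 0.82 in anti-PD-1 and 3.08 in control tumours, beside 0.27 and 0.36 over all genes (n = 3 per group).

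Without control replicate 3 all 32 members kept their direction (31 lower, Cidea higher), the median difference was -1.04, and 17 members were at least 2-fold lower, against 2.46% of all genes. Without control replicate 4, 25 members were lower by the unadjusted rule, against 2.83% of all genes, and without control replicate 2 0 were, against 4.29% of all genes. No member passed the adjusted threshold in either case.

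**Figure D4:**
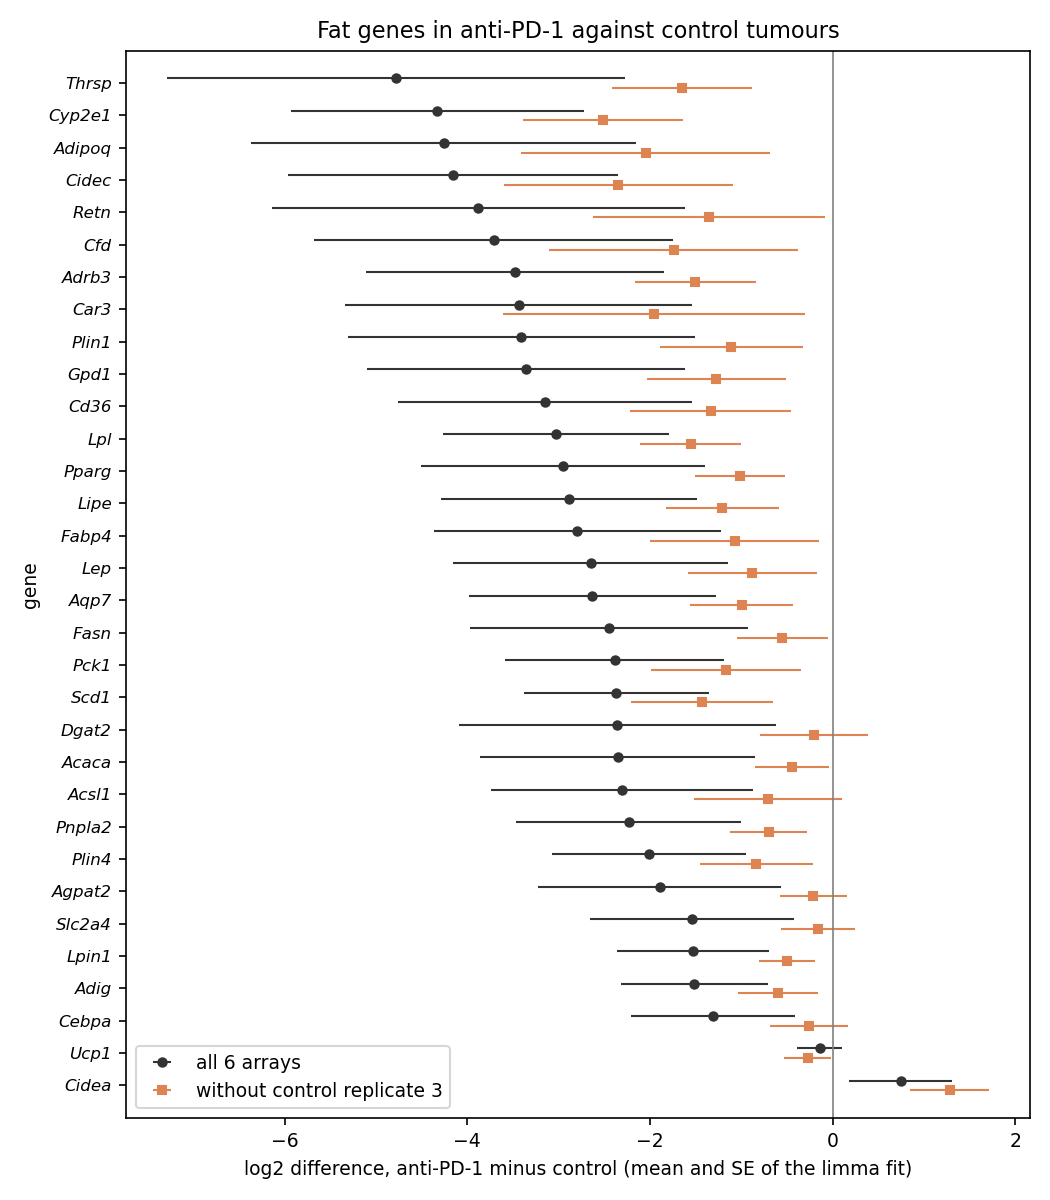
Difference of the log2 means, anti-PD-1 minus control (horizontal axis, with the SE of the limma fit), for each fat gene (rows, sorted), over all 6 arrays (black circles) and without control replicate 3 (orange squares). All points but that of Cidea lie left of 0, and most move towards 0 without that array, with the median over the genes at -1.04 instead of -2.64.

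The authors' deposited table gave smaller differences for part of the set. It lists a fold above 2, control over anti-PD-1, for 23 members, and a negative fold, that is, a higher value in anti-PD-1, for Cidea and Cebpa. Its FDR for the members lay between 0.509 and 0.842. How its averages were formed was not given in the sources used here. Between the group medians computed here, likewise, 23 members were at least 2-fold lower in anti-PD-1 tumours.

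The amount of fat gene signal was summed up per array as the median score over the 32 members. It was -1.20, -0.70 and -2.19 in the anti-PD-1 tumours 1, 2 and 3, and 0.62, 4.82 and -1.33 in the control tumours 2, 3 and 4. Control replicate 4 thus lay between anti-PD-1 replicates 1 and 3, and the distance between control replicates 3 and 4 was larger than any distance between tumours of different groups other than that from anti-PD-1 replicate 3. In control replicate 3, 22 of the 100 genes with the highest deviation were members, and in control replicate 2 18 were. In anti-PD-1 replicate 3, 10 of the 100 genes with the lowest deviation were members.

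The pair of controls with high fat genes differed in which genes stood out. In control replicate 2 the members with the highest ranks among all genes were Cidec at 5, Retn at 7, Adipoq at 8, Cyp2e1 at 10, Thrsp at 11, Cfd at 12 and Pck1 at 13. In control replicate 3 Thrsp was at 1, Retn at 7, Adipoq at 12 and Plin1 at 14. Dgat2, Agpat2, Lep, Slc2a4, Cebpa and Ucp1 lay within 0.6 of their median in control replicate 2. The first 5 of these genes were between 3.13 and 6.22 above their median in control replicate 3.

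Milk protein genes separated the same pair from the other tumours. The score of 7 such genes was -2.61, -2.26 and -1.79 in anti-PD-1 tumours and 3.38, 5.07 and -2.44 in controls. Csn1s2a, a casein, read 4.87, 5.09 and 5.82 in anti-PD-1 tumours and 13.57, 13.06 and 5.56 in controls. Control replicates 2 and 3 were alike in this gene, though they differed by 4.56 in Adipoq. The caseins Csn1s1, Csn2 and Csn3 were instead higher in control replicate 3 than in control replicate 2. In control replicates 2 and 3, Csn1s1 read 12.11 and 15.67, Csn2 13.68 and 16.21, and Csn3 11.89 and 15.20. Of the 7 genes, Wap and Lalba read between 3.45 and 6.45 in all arrays. Glycam1 was higher in control replicate 2 alone, at 6.03, beside 4.16 in control replicate 3 and 3.91 in control replicate 4. In the anti-PD-1 tumours it read 3.95, 3.87 and 3.90. The part of mammary tissue in the fat gene signal was not tested.

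Markers of squamous epithelium ran the opposite way in control replicate 3. Their score over 10 genes was 1.38, 2.55 and 1.14 in anti-PD-1 tumours and 0.57, -4.25 and -1.49 in controls. All 10 had a higher mean in anti-PD-1 tumours, and 0 passed the adjusted threshold. The groups did not overlap for 7 of the 10, all higher in anti-PD-1 tumours, against 8.82% of all genes. By the unadjusted rule 9 were higher, against 2.15% of all genes. The median difference was 3.555, and 2.076 without control replicate 3. Control replicate 4, low in fat genes, was the second lowest array in the squamous score, at -1.49 beside -4.25 in control replicate 3. How much the share of tumour cells bears on the fat gene signals was not tested.

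**Figure D5:**
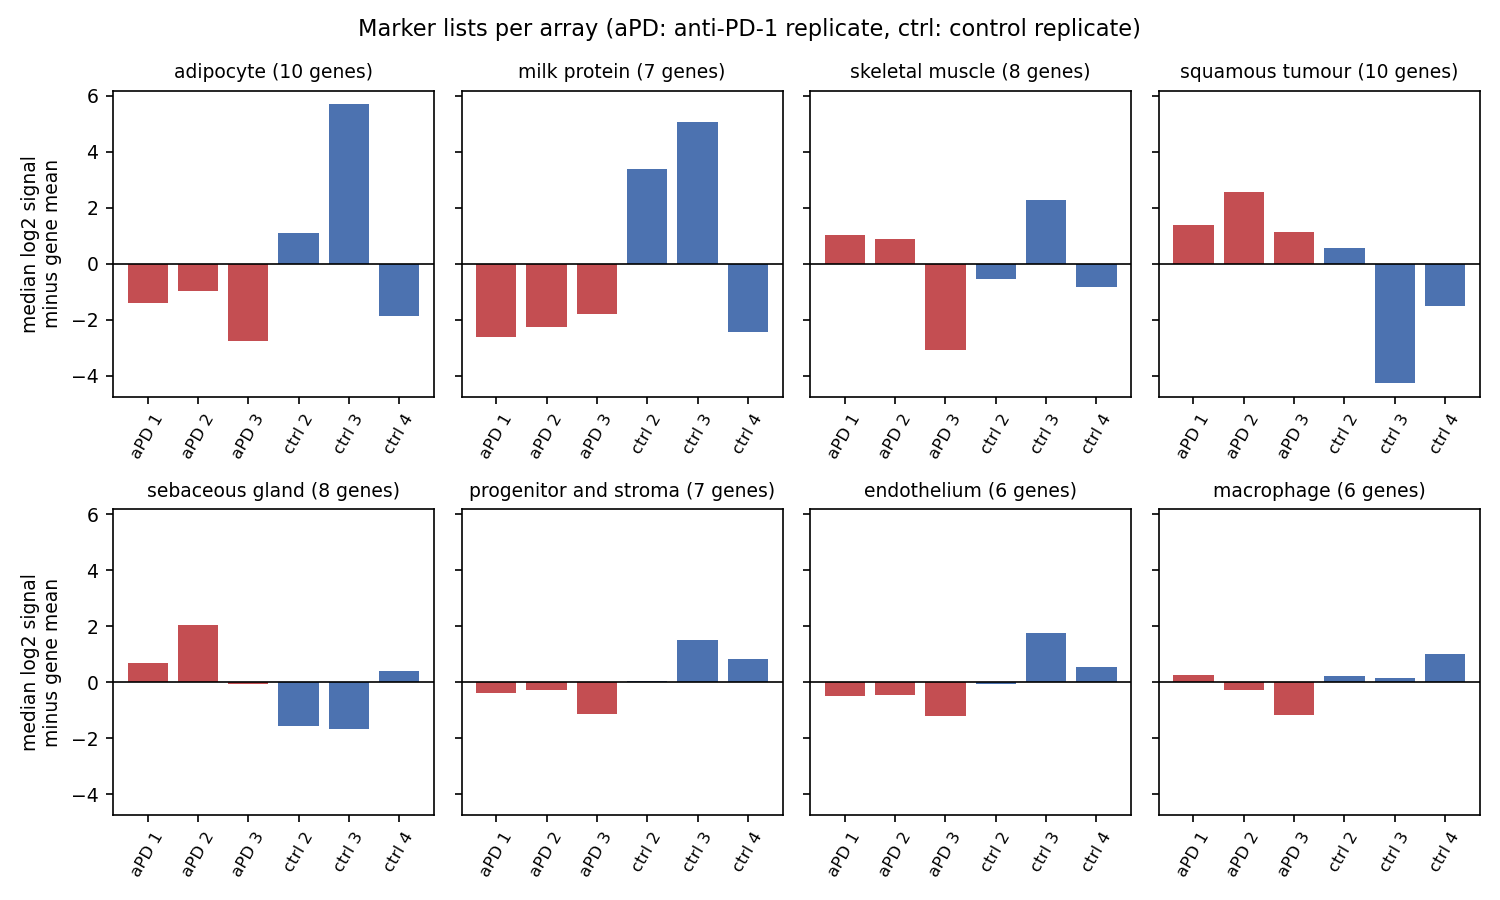
Score per array (vertical axis, the median over the listed genes of each signal's distance from its own 6-array mean, in log2 units) for 8 marker lists, with anti-PD-1 tumours (aPD, red) left of control tumours (ctrl, blue). The 10 adipocyte genes are all members of the set of 32, so that panel repeats members' values and is not a separate list. Adipocyte and milk protein genes are high in control replicates 2 and 3, progenitor and endothelial genes in control replicates 3 and 4, and muscle genes are low in anti-PD-1 replicate 3.

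Genes of fat cell progenitors and stroma had a different order from those of the mature cell. Over 7 measured genes the score was -0.40, -0.28 and -1.14 in anti-PD-1 tumours and 0.04, 1.52 and 0.84 in controls. The groups did not overlap for 3 of the 7, all lower in anti-PD-1 tumours, against 7.76% of all genes. These 3, Dpp4, Pi16 and Cd34, mark progenitor cells of connective tissue. Ly6a, a stem cell antigen of several cell types, ran the other way, at 16.66, 16.21 and 16.79 in anti-PD-1 tumours and 16.06, 12.78 and 16.47 in controls, and Dlk1, a preadipocyte gene, differed by -0.07. Pi16 read 7.67, 6.96 and 7.06 in anti-PD-1 tumours, against 8.19, 10.26 and 9.55 in controls. Here control replicate 4 was the second highest array, whereas for mature fat genes it was among the anti-PD-1 tumours. The difference for Pi16 was -2.10 ± 0.53 (SE, adjusted p 0.506 by limma).

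The same held for Ebf2, a factor of fat progenitors and of the brown lineage, which read 4.22, 4.42 and 4.04 in anti-PD-1 tumours and 6.31, 8.75 and 6.80 in controls. All 3 controls were above all anti-PD-1 tumours by at least 1.89, and the difference was -3.06 ± 0.60 (SE, adjusted p 0.506 by limma). Of 6 endothelial genes, 5 had no overlap, all lower in anti-PD-1 tumours, against 7.76% of all genes. Cdh5, the cadherin of vessel walls, read 11.48, 11.51 and 10.65 in anti-PD-1 tumours and 12.02, 13.66 and 12.50 in controls. None of the progenitor, stromal or endothelial genes passed the adjusted threshold. The macrophage score was 0.25, -0.28 and -1.16 in anti-PD-1 tumours and 0.22, 0.14 and 1.00 in controls. Control replicate 4 was the highest array in this score. Of the 6 macrophage genes, 1, Cd163, was highest in control replicate 3, at 10.92. The part of macrophages in the Fabp4 and Cd36 signals was not tested.

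Other genes of the fat cell outside the 32 were less uniform. Of 49 measured of 50 listed, 37 had a lower and 12 a higher mean in anti-PD-1 tumours, 0 passed the adjusted threshold, and the median difference was -0.51, or -0.21 without control replicate 3. For 36 of them control replicate 3 was the highest array, against 26.1% of all genes. The groups did not overlap for 10 genes that were lower in anti-PD-1 tumours, against 7.76% of all genes. They did not overlap either for 2 that were higher, against 8.82%. Mest, an imprinted gene linked to fat cell size, read 11.25, 10.67 and 10.48 in anti-PD-1 tumours and 12.32, 11.68 and 12.07 in controls (difference -1.22, adjusted p 0.506 by limma).

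Fabp5, the epidermal relative of Fabp4, took the opposite course. It read 11.62, 11.76 and 12.02 in anti-PD-1 tumours, against 8.71, 10.82 and 9.61 in controls. All anti-PD-1 tumours were above all controls, by 0.80 at the closest pair, and the difference was 2.09 ± 0.51 (SE, adjusted p 0.506 by limma). Adipor1, a receptor of adiponectin that most cells carry, read 14.65, 14.56 and 14.63 in anti-PD-1 tumours and 14.03, 13.31 and 13.95 in controls.

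A few further genes, chosen after their values were seen, show what control replicate 3 held beyond the set. Mlxipl encodes ChREBP, the sugar-responsive factor that drives lipid synthesis, and read 5.10, 4.81 and 4.84 in anti-PD-1 tumours and 5.38, 11.11 and 4.90 in controls. Me1, malic enzyme, which supplies the NADPH for that synthesis, read 9.79, 10.34 and 9.66 in anti-PD-1 tumours and 10.34, 16.69 and 9.63 in controls. Both were high in control replicate 3 alone. Plin2, the perilipin of cells of many types, read 14.72, 14.16 and 15.01 in anti-PD-1 tumours and 14.52, 13.80 and 13.98 in controls, and control replicate 3 was its lowest array.

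Enzymes of fatty acid oxidation had smaller differences in the median. Of 19 measured of 20 listed, 16 had a lower mean in anti-PD-1 tumours. The median difference was -0.39, and 0.04 without control replicate 3. For 18 of the 19 control replicate 3 was the highest array, against 26.1% of all genes. For 5 the groups did not overlap, all lower in anti-PD-1 tumours, against 7.76% of all genes. Decr1, an enzyme for unsaturated fatty acids, differed by -1.78 and Crat, carnitine acetyltransferase, by -1.45. Acadm, the medium-chain acyl-CoA dehydrogenase, read 9.84, 9.77 and 9.60 in anti-PD-1 tumours and 10.39, 11.91 and 10.21 in controls, and 0 of the 19 passed the adjusted threshold.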

How the data were processed

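Per the file headers, the deposited values are log2 signals per transcript cluster of Clariom S Mouse arrays, summarised by SST-RMA at gene level and annotated on mm10. RNA input was 250 ng per sample, per the labels' protocols. The tool in the submitters' processing notes is the Transcriptome Analysis Console, and the sources used here do not give its version. The authors' deposited table also holds log2 group averages, a signed fold (a score, negative where control is lower), and, per the file headers, p-values and FDR values.

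Samples were grouped by their treatment labels. Of 22206 clusters, 836 with several names and 3 without a name were left out, and for 132 genes with several clusters the one with the highest mean was kept. The remaining 21154 genes were all tested, dim ones included. The 2 groups were compared with limma 3.58.1 in R 4.3.3 (lmFit, then eBayes). Tests were two-sided, p-values were adjusted by the Benjamini-Hochberg method across all genes, and the fit was tested on simulated data. Deviations are log2 signals less the gene's median over the 6 arrays, ranked from the highest over all genes, and scores are medians over a list of the signal less the gene's own mean. Promoter windows came from RefSeq. The 32 members, the marker lists and the tests were chosen with earlier results of these data known. All members could be named, and of each other list up to 4 genes by the smallest p. Ly6a, Dlk1, Wap, Lalba, Glycam1, Plin2, Mlxipl, Me1 and the promoter of Thrsp were named outside that rule after their values were seen. Alternatives were each array left out, other normalizations, a filter on expressed genes, array weights, another prior, the replicate number as a block, the mean over clusters and, added after the data were seen, group medians. With 3 arrays per group, the number of arrays limits the precision.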

Additional observations from a re-analysis of the deposited data

How the results depend on the processing

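Under the alternatives run, no member passed an adjusted p of 0.05, and the lowest adjusted p of any member was 0.322, for Pck1 without control replicate 4. The number of members lower in anti-PD-1 tumours stayed between 30 and 31. Of the 32 differences, Ucp1 turned to 0.032 without anti-PD-1 replicate 1 (range over left-out arrays -0.27 to 0.032) and to 0.085 with the replicate block, and Cebpa to 0.01 with group medians. The count of members at least 2-fold lower was 17 without control replicate 3 and up to 30 over the arrays left out, 24 with array weights and 23 with group medians or in the authors' deposited table. The count by unadjusted p under 0.05 and 2-fold was 2, with a range of 0 to 25 over the arrays left out, and 13 with the replicate block. Over all genes the adjusted count was 1, with a range of 0 to 4 over the arrays left out (4 without control replicate 3, 3 without control replicate 4), and 0 with quantile normalization, median centring or the replicate block. The unadjusted count over all genes was 910, with a range of 567 to 1928. The member score of anti-PD-1 replicates 1, 2 and 3 ranged from -1.54 to -0.24, from -1.22 to 0.21 and from -2.45 to -1.20 over the arrays left out, that of control replicate 2 from 0.15 to 1.58, of control replicate 3 from 4.30 to 4.97 and of control replicate 4 from -1.69 to -0.31. The upper end of each, other than that of control replicate 3, was without control replicate 3. Each score is a distance from the gene's mean over the arrays kept. Leaving out the array with the highest signals lowers that mean, so the other scores rise by construction. Replicate numbers 2 and 3 occur in both groups, and the arrays that share them had correlations of deviations of -0.20 and -0.19. With 3 arrays per group these values cannot show whether the tumours were paired, and the labels name no pairs. The small number of arrays, 3 per group, limits every comparison, and signals near an array's lowest or highest values bound the size of a difference.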
